A study of Mus musculus with 12 samples.

Results

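The 10 genes described here encode S100 proteins: S100a1, S100a4, S100a6, S100a8, S100a9, S100a10, S100a11, S100a13, S100a14 and S100a16. They are named members of the family, listed with earlier results of these data known, and all 10 are among the 21743 genes of the table, beside 6 other S100 genes that are described briefly. For each, the level was measured per library and per marker-defined cell type, to see which members mark mesenchymal and which mark epithelial tumor cells.

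S100 proteins are small calcium-binding proteins built on a pair of EF-hand motifs. Most form dimers, open a hydrophobic face when calcium binds, and attach to partner proteins at the membrane, the cytoskeleton or outside the cell. S100A4 and S100A6 are widely used as markers of mesenchymal and migrating cells, whereas S100A8 and S100A9 form calprotectin, an abundant protein of neutrophils that some secretory epithelia also make. S100A10 is unusual in that it has lost calcium binding and stays joined to annexin A2.

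Single cells were measured by Drop-seq, a droplet method that tags each captured RNA molecule with a unique molecular identifier (UMI). The cells came from 2 mice that carried MMTV-Cre and 2 floxed Brca1 alleles (Brca1 flox/flox) on a mixed C57BL/6 and 129/Sv background. MG1 (2 libraries) is the fourth pair of mammary glands of mouse 1 and MT1 (5 libraries) is its mammary tumor, while MG2 (2 libraries) and MT2 (3 libraries) are the same tissues of mouse 2. All suspensions had been depleted of blood and endothelial cells, and no animal with intact Brca1 was part of the comparison. The MMTV promoter drives Cre mainly in mammary epithelium and not in every cell, no treatment was given, and the labels give no age. Libraries of 1 tissue come from 1 animal, so p-values of library comparisons cover the spread between libraries of these tissues only.

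All 10 members lie on chromosome 3 (GRCm38). Of these, 8 sit in a cluster of 184688 bases, in the order S100a1 (chr3:90511034-90514392, minus strand), S100a13 (chr3:90514435-90524581), S100a14 (chr3:90526856-90528837), S100a16 (chr3:90537254-90543151), S100a4 (chr3:90603771-90606045), S100a6 (chr3:90612882-90624181), S100a8 (chr3:90668978-90670035) and S100a9 (chr3:90692632-90695721, minus strand). S100a11 (chr3:93520488-93526287) and S100a10 (chr3:93555080-93564643) lie 2824766 bases further on. Genes without a named strand are on the plus strand, and all are protein-coding. The starts of S100a1 and S100a13 are 43 bases apart and face away from each other. S100a4 is overlapped on its own strand by Gm42674, so the division of reads between these genes is uncertain.

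The 250 bases before the start (RefSeq, GRCm38.p6) are shown for S100a4, the member that differed most between tumor cell classes, for S100a8, one of 2 members lower in the mesenchymal-like cells, for S100a11, the only member window with the AP-1 motif, and for S100a13, the S100a1 neighbour that changed in MT2. RefSeq windows were matched for 8 of the 10 members. Capitals mark TATAAA (the TATA box) in S100a4 and S100a8 and TGAGTCA (the AP-1 motif, TGACTCA on the other strand) in S100a11. The windows are chr3:90603520-90603769, chr3:90668821-90669070, chr3:93520246-93520495 and chr3:90514185-90514434, all on the plus strand.
S100a4: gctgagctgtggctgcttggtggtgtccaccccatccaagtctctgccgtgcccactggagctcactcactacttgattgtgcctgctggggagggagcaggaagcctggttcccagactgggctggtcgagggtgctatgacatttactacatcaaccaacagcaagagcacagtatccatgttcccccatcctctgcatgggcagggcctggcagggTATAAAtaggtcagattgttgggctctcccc
S100a8: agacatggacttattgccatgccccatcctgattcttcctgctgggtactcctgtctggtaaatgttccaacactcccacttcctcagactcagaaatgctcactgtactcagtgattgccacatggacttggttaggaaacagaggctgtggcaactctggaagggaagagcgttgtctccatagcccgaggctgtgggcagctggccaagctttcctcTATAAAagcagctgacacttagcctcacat
S100a11: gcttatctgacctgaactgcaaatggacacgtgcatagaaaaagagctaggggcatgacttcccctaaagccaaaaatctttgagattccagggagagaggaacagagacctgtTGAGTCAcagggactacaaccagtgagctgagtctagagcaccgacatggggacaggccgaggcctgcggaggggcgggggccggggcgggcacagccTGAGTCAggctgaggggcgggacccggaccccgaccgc
S100a13: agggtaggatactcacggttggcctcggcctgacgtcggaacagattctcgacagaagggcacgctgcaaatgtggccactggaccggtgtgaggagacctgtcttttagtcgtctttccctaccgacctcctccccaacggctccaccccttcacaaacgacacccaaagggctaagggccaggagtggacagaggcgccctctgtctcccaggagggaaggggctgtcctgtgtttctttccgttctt

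In S100a4 and S100a8 the first base of TATAAA lay at -31 and -30 from the start, and S100a11 held TGAGTCA at -136 and -38. Over the 300-base windows of all 32851 RefSeq starts (250 bases before and 50 after), 13.6% held TATAAA or TTTATA, 5.2% held TGACTCA or TGAGTCA, and 20.2% held the E-box CAGGTG or CACCTG. Of the 9 member windows, 3 held the TATA motif (S100a4, S100a8 and S100a9), 1 the AP-1 motif and 2 the E-box (S100a16 at -203 and S100a9 at -53). No match overlapped another, and a match is a description of the sequence only.

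The libraries held between 693333 and 14841414 UMIs in 105 to 4874 cells, 21157 cells in all, and pairs of libraries shared 0 to 7 cell barcodes. Cells were clustered without any S100 gene, which gave luminal secretory-like, luminal hormone-sensing-like and basal-like clusters of the glands, the stromal clusters (fibroblast-like, endothelial-like and immune-like, 1109 cells) and 5 tumor clusters. In MT1, 6017 cells fell into clusters 3 and 4, which were epithelial-like (Epcam 2213 and Vim 122 CPM, which scales a gene's UMIs to the total of the sum), and 1351 into cluster 5, which was mesenchymal-like with Vim, Cdh2, Twist1, Prrx1 and Lgals1 raised (Epcam 198 and Vim 7159). MT2 was almost wholly Vim-high, with 9788 cells at 3802 CPM of Vim and 5.46 of Epcam. Its clusters 1 and 2 reached only 2 and 0 markers of the mesenchymal list past the fold required. They therefore stay unnamed and are called Vim-high MT2 cells. That fold set each cluster against all other cells, the other MT2 cluster among them, so it does not measure a lack of these markers. The 12 mesenchymal markers summed to 9399, 10507 and 10296 CPM in the Vim-high MT2 cells. In MT1 they summed to 14854 to 16372 in the mesenchymal-like and 959 to 1139 in the epithelial-like cells. MG1 replicate 2 is the thinnest library, with 71 cells outside the stromal clusters. The whole mesenchymal-like cluster of MT1 is labelled Vim-high in the plots.

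Levels are given in CPM for each library over its cells outside the stromal clusters, in the order of the replicate numbers. A lower level per library can come from fewer cells of a type or from less RNA per cell, and these cannot be told apart in such sums. The question of the first comparison was which members were higher or lower in each tumor than in the gland of the same mouse. In MT1, S100a10, S100a4 and S100a6 rose against MG1, and S100a14 and S100a16 fell. In MT2, S100a10, S100a6 and S100a13 rose against MG2, and S100a14 and S100a16 fell.

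Markers of other cell types also differed in these sums. The 9 fibroblast markers summed to 923 and 953 CPM in MG1 and 452 to 617 in MT1, but to 419 and 449 in MG2 and 3481 to 3941 in MT2. The 4 neutrophil markers in the table summed to 2.26 and 0 in MG1 and 11.4 to 17.5 in MT1, and to 7.62 and 12.7 in MG2 and 176 to 204 in MT2. The 6 mural markers went from 16.6 and 24.9 to between 8.05 and 9.76 in mouse 1 and from 17.0 and 16.05 to between 28.2 and 37.7 in mouse 2, while the 9 immune markers ranged from 4.23 to 19.2 over all libraries. The 8 endothelial markers had 9.04 and 23.0 in MG1 and 7.26 to 10.99 in MT1, and went from 12.5 and 15.5 in MG2 to between 4.75 and 6.36 in MT2. The part of these markers in the differences below was not tested.

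**Figure D1:**
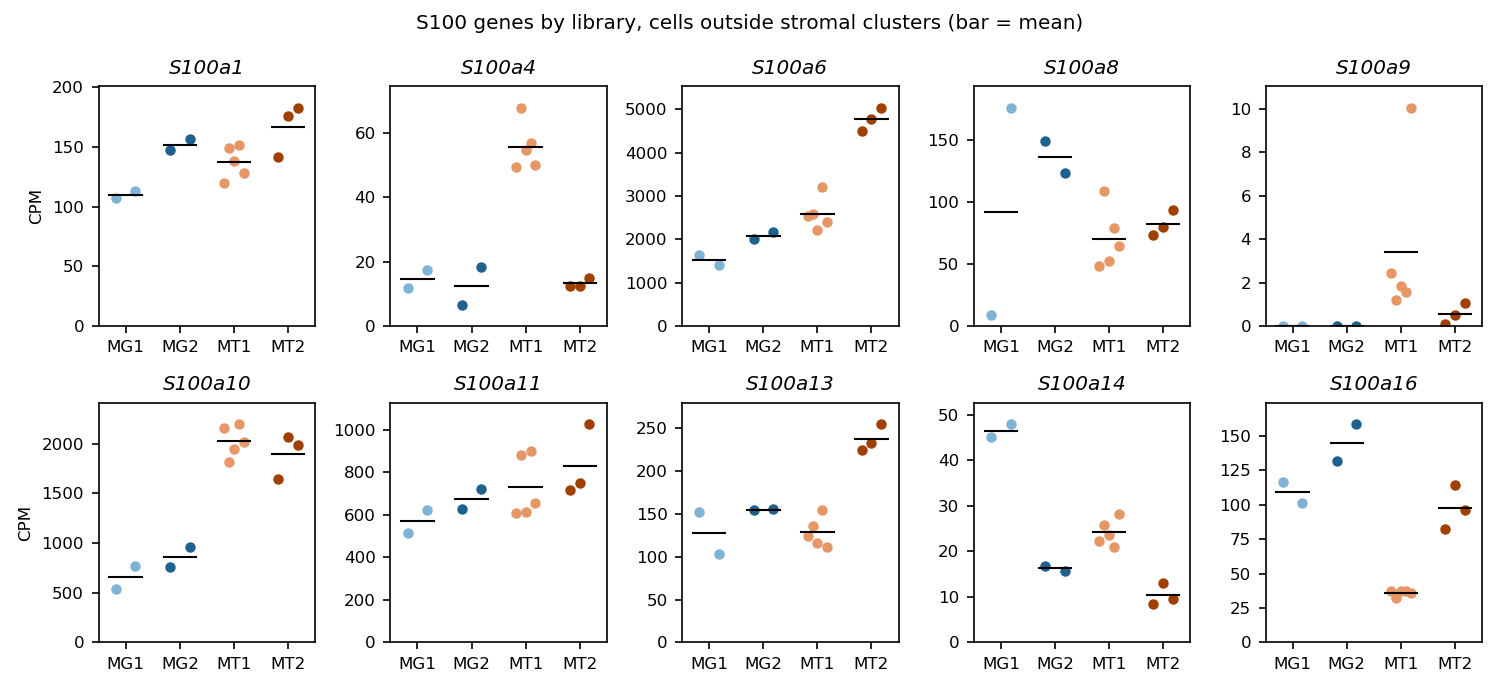
Level of each S100 gene in each library (points, CPM, linear axes from 0 that differ between genes), with the mean of each group as a bar. S100a10 and S100a6 lie higher in both tumors than in the gland of the same mouse, S100a4 is high in the 5 MT1 libraries (49.6 to 67.9), and S100a16 is low there (32.2 to 37.7).

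S100a10, the annexin A2 partner that carries plasminogen to the cell surface, was raised in both tumors. It stood at 542 and 773 CPM in MG1 and at 2155, 1817, 1947, 2196 and 2015 in MT1. In mouse 2 it stood at 759 and 965 in MG2 and at 1646, 2070.4 and 1988 in MT2. Every tumor library was above every gland library in both mice. The rise was 3.15-fold in mouse 1 (log2 fold change 1.66, SE 0.17, edgeR adjusted p 3.79e-07) and 2.44-fold in mouse 2 (log2 fold change 1.28, SE 0.17, edgeR adjusted p 3.59e-06).

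S100a6, also called calcyclin, binds the calcyclin-binding protein Cacybp and several annexins. Its levels were 1648 and 1402 in MG1 and 2545, 2579.8, 2207, 3207 and 2406 in MT1, and 1998 and 2161 in MG2 and 4503, 4787 and 5033 in MT2. The groups did not overlap in either mouse, and MT2 was the highest of the 4. S100a6 rose by 1.68-fold in MT1 (log2 fold change 0.75, SE 0.18, edgeR adjusted p 0.00197) and by 2.53-fold in MT2 (log2 fold change 1.34, SE 0.20, edgeR adjusted p 1.09e-05). In MT1 the epithelial-like cells had 1475 to 2045, beside 1648 and 1402 in the MG1 sums, and the mesenchymal-like cells 5209 to 7921. The part of each class in the MT1 rise was not tested. The rises did not differ past the threshold (log2 difference -0.59, SE 0.26, edgeR adjusted p 0.0748), a value that passed it in 9 of 18 alternatives, while the tumors themselves differed, with MT1 below MT2 (log2 fold change -0.94, SE 0.15, edgeR adjusted p 2.32e-05).

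S100a4, also known as metastasin or fibroblast-specific protein, binds non-muscle myosin heavy chain. It had 11.7 and 17.3 CPM in MG1 and 49.6, 67.9, 54.8, 57.0 and 50 in MT1, so that every MT1 library was above both gland libraries. In mouse 2 it had 6.39 and 18.3 in MG2 and 12.4, 12.5 and 15.0 in MT2, and these overlapped. S100a4 rose in MT1 by 4.15-fold (log2 fold change 2.05, SE 0.32, edgeR adjusted p 3.76e-05) and its MT2 value did not pass (log2 fold change 0.26, SE 0.27, edgeR adjusted p 0.42).

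The S100a4 levels of the glands rested on few cells. Of 61 gland cells that fell into tumor clusters, 44 were MG2 cells of the mesenchymal-like cluster 5, 18 and 26 in the 2 libraries, and none shared a barcode with MT1. The tumor-cluster cells held 90 of the 98 S100a4 UMIs in the MG2 sums and 25 of the 40 in the MG1 sums. Without them the gland levels were 2.37 and 17.3 in MG1 and 1.01 and 1.06 in MG2, and S100a4 was higher in the tumor in both mice (log2 fold change 3.33 in mouse 1 and 3.79 in mouse 2, edgeR adjusted p 1.15e-06 and 5.01e-07). The change of mouse 1 minus that of mouse 2 was 1.79 with all gland cells (SE 0.43, edgeR adjusted p 0.00267) and -0.47 without those cells (edgeR adjusted p 0.642). Leaving out MG2 replicate 2 gave a difference of 0.73 (edgeR adjusted p 0.172) and an MT2 rise of 1.37 (edgeR adjusted p 0.000999), and leaving out MG2 replicate 1 gave -0.08 for MT2. With stromal cells included, the difference was 0.49 (edgeR adjusted p 0.38) and the MT2 rise 1.06 (edgeR adjusted p 0.00498).

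S100a16, a widely expressed member, had 117 and 102 CPM in MG1 and 37.5, 32.2, 37.7, 37.2 and 36.2 in MT1. In mouse 2 it had 132 and 158 in MG2 and 82.5, 115 and 96.4 in MT2. Both tumors lay wholly below their gland, MT1 much further. S100a16 fell 3.12-fold in MT1 (log2 fold change -1.64, SE 0.17, edgeR adjusted p 3.75e-07) and 1.34-fold in MT2 (log2 fold change -0.43, SE 0.16, edgeR adjusted p 0.0297), and the falls differed between mice (log2 difference -1.22, SE 0.24, edgeR adjusted p 0.000528). The call in MT2 was lost in 6 of 12 alternatives, among them the removal of MG2 replicate 1, MG2 replicate 2, MT2 replicate 1 or MT2 replicate 3 (log2 fold change -0.11 to -0.42).

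S100a14, a member of epithelia and their tumors, had 45.2 and 47.9 in MG1 and 22.4, 25.9, 23.7, 21.0 and 28.1 in MT1, and 16.7 and 15.8 in MG2 and 8.53, 13.2 and 9.47 in MT2. The tumor libraries lay below the gland libraries in both mice, and MT2 was the lowest group. It fell 1.96-fold in MT1 (log2 fold change -0.97, SE 0.20, edgeR adjusted p 0.000579) and 1.42-fold in MT2 (log2 fold change -0.51, SE 0.21, edgeR adjusted p 0.0408). The MT1 call was lost without MG1 replicate 1 (log2 fold change -0.71, edgeR adjusted p 0.104). The MT2 call was lost in 9 of 12 alternatives, among them the removal of MG2 replicate 1, MG2 replicate 2, MT2 replicate 1 or MT2 replicate 3 (edgeR adjusted p 0.102 to 0.537).

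S100a13, which takes part in the release of signal-less growth factors such as FGF1, changed in mouse 2. Its levels were 155 and 155 in MG2 and 224, 233 and 255 in MT2, against 153 and 104 in MG1 and 124, 137, 116, 155 and 112 in MT1. MT2 was the only group that stood apart, and MG1 and MT1 overlapped. S100a13 rose 1.69-fold in MT2 (log2 fold change 0.75, SE 0.19, edgeR adjusted p 0.0022), and the change of mouse 1 was lower than that of mouse 2 (log2 difference -0.84, SE 0.27, edgeR adjusted p 0.017), and this call did not hold without MG1 replicate 1 (-0.20, edgeR adjusted p 0.631).

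The remaining members did not pass in either tumor. S100a1, a member best known from heart and skeletal muscle, went from 107 and 113 to 119.8, 149.6, 139, 152 and 129 in mouse 1 and from 147 and 157 to 142, 176 and 183 in mouse 2 (log2 fold change 0.32, SE 0.16, edgeR adjusted p 0.103 in MT1, log2 fold change 0.28, SE 0.16, edgeR adjusted p 0.133 in MT2). S100a11, which binds annexin A1, went from 513 and 623 to 606, 878, 611, 901 and 653 and from 626 and 721 to 715, 748 and 1025 (log2 fold change 0.38, SE 0.20, edgeR adjusted p 0.103 in MT1, log2 fold change 0.44, SE 0.21, edgeR adjusted p 0.0685 in MT2, which passed in 6 of 12 alternatives). S100a8 had 8.66 and 176 in MG1, 48.4, 109, 52.9, 79.0 and 64.3 in MT1, 149.7 and 124 in MG2 and 73.8, 80.4 and 93.8 in MT2. The MG1 libraries of S100a8 lie on either side of all MT1 libraries, so its MT1 value turned with them (log2 fold change 0.18, SE 0.60, edgeR adjusted p 0.822, 2.91 with adjusted p 1.50e-05 without MG1 replicate 2, and -1.04 with adjusted p 0.0131 without MG1 replicate 1). In mouse 2 all MT2 libraries of S100a8 lay below MG2 and the difference did not pass (log2 fold change -0.59, SE 0.49, edgeR adjusted p 0.297), although it did in a fit of these groups only (-0.56, SE 0.15, edgeR adjusted p 0.00312).

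Of the 10 members, 9 passed the filter on low counts, S100a9 not, and 5 of these 9 passed an adjusted p of 0.05 in MT1 against MG1, 3 higher and 2 lower. Over all 13656 genes tested the share was 59.3%. In MT2 against MG2 the count was again 5 of 9, beside 66.9% of all genes, and the difference between mice was called for 3 of 9, beside 43.5%. The member median was 0.32 in MT1 (0.11 over all genes) and 0.28 in MT2 (-0.05 over all genes). These member counts are not above the shares over all genes and are not read as a result about the family.

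With the mouse as the replicate, 1 sum per tissue and mouse, edgeR called 0 of the 9 members tested and 0 of 14950 genes (0.0%). At an unadjusted p under 0.05 there were 1 member and 2221 genes. S100a10 was that member (log2 fold change 1.58, SE 0.40, unadjusted p 0.0187, edgeR adjusted p 0.309). DESeq2 on the same sums called 1332 genes, S100a10 among them (DESeq2 adjusted p 0.0338).

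Between the tumors, 6 of 9 members passed, beside 68.4% of all genes. S100a4 (log2 fold change 2.02, SE 0.20, edgeR adjusted p 5.10e-08) and S100a14 (1.17, SE 0.16, edgeR adjusted p 4.31e-06) were higher in MT1. S100a16 (-1.48, SE 0.14, edgeR adjusted p 2.45e-08), S100a13 (-0.93, SE 0.15, edgeR adjusted p 2.25e-05), S100a6 and S100a1 were lower in MT1 than in MT2. The S100a1 call (-0.32, SE 0.12, edgeR adjusted p 0.0281) was lost without MT2 replicate 2 or MT2 replicate 3.

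The mesenchymal-like and epithelial-like cells of MT1 were compared within the same 5 libraries, to ask which members mark each class of tumor cell. S100a4, S100a6, S100a13, S100a10 and S100a11 were higher in the mesenchymal-like cells, and S100a8 and S100a14 were higher in the epithelial-like cells. S100a14 held only 0 to 8 UMIs a library in the mesenchymal-like sums and passed the filter through the epithelial-like sums. S100a16 did not pass and S100a1 passed only narrowly. Of the 9 members tested 8 were called, 6 higher and 2 lower, beside 63.4% of 9786 genes.

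**Figure D2:**
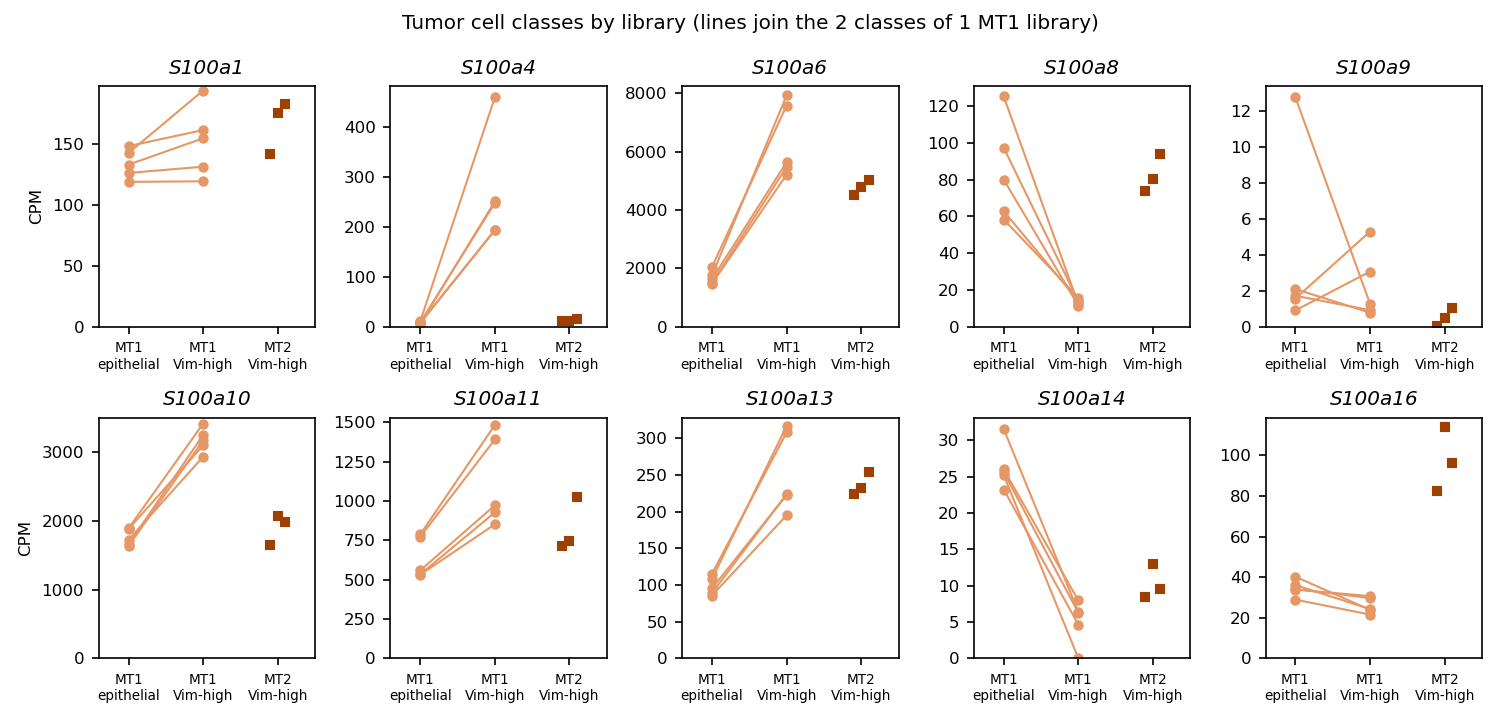
Level of each S100 gene (CPM, linear axes from 0 that differ between genes) in the epithelial-like and the Vim-high mesenchymal-like cells of MT1, a line joining the classes of 1 library, and in the Vim-high cells of MT2 (squares, 1 per library). S100a4 goes from at most 11 to at least 193 in every MT1 library, S100a8 and S100a14 go down in every one, and S100a4 stays at 12.3 to 15.1 in MT2.

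S100a4 separated the classes most. It had 7.09, 11, 8.80, 6.18 and 8.27 CPM in the epithelial-like cells of the MT1 libraries and 194, 459, 248, 251 and 193 in the mesenchymal-like cells. The classes were far apart in all 5 libraries, and replicate 2 had the highest mesenchymal-like value. The difference was 31.9-fold (log2 fold change 4.99, SE 0.11, edgeR adjusted p 8.49e-59). The mesenchymal-like class made up 17.6% of the MT1 cells and 19.2% of the UMIs and held 85.5% of the S100a4 UMIs.

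Counted by cells, with each cell thinned to 1000 UMIs, S100a4 was seen in 17.5% of the mesenchymal-like cells (236 of 1351, exact Clopper-Pearson 95% interval 15.5% to 19.6%). It was seen in 0.66% of the epithelial-like cells (40 of 6017, 0.48% to 0.90%), at median depths of 2327 and 2080 UMIs. The luminal secretory-like cells of MG2 had it in 0 of 931 at a median depth of 2533 UMIs, and the part of free RNA in the epithelial-like share was not tested. Without thinning the shares were 35.0% and 1.99%. These intervals cover counting error only, and no cell was left out by the thinning.

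S100a6 had 1632, 1759, 1475, 2045 and 1498 in the epithelial-like and 5633, 7921, 5209, 7574 and 5471 in the mesenchymal-like cells, 3.76-fold higher in the latter (log2 fold change 1.91, SE 0.04, edgeR adjusted p 7.71e-60). The hormone-sensing-like cells found in MT1, in neither class, had 6208, 3256, 4323 and 3189 in replicates 2 to 5 (10 to 20 cells each). A high S100a6 level was therefore not confined to the mesenchymal-like cells of MT1. After thinning, 66.5% of the epithelial-like cells and 98.1% of the mesenchymal-like cells had a UMI. The share in the endothelial-like cells of MT1 was 62.6%, so nothing is read from the epithelial-like share. S100a13 had 95.3, 108, 89.1, 115 and 85.7 and 223, 317, 224, 308 and 195, 2.56-fold higher in mesenchymal-like cells (log2 fold change 1.35, SE 0.07, edgeR adjusted p 2.04e-30). The classes of both genes were separate in all 5 libraries.

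S100a10 had 1882, 1633, 1723, 1891 and 1658 in the epithelial-like and 3098, 3171, 2934, 3416 and 3251 in the mesenchymal-like cells (log2 fold change 0.86, SE 0.04, edgeR adjusted p 2.23e-34). S100a11 had 532, 788, 534, 772 and 559 and 852, 1484, 928, 1392 and 973 (log2 fold change 0.82, SE 0.04, edgeR adjusted p 5.59e-30). Both were higher in the mesenchymal-like cells of every library, by less than 2-fold (1.81 and 1.76). The call of S100a1 (log2 fold change 0.17, SE 0.08, edgeR adjusted p 0.0491) was lost in 10 of 12 alternatives, among them the removal of MT1 replicate 1, 2, 3 or 4, and its levels were 119, 143, 133, 148 and 126 in the epithelial-like and 119, 194, 155, 162 and 131 in the mesenchymal-like cells, level in replicate 1 and higher in the latter in the other libraries.

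S100a8 had 58.3, 125, 62.9, 97.4 and 80.1 in the epithelial-like and 15.9, 12.3, 14.1, 13.9 and 11.5 in the mesenchymal-like cells, 5.93-fold lower in the latter (log2 fold change -2.57, SE 0.16, edgeR adjusted p 3.72e-26). The epithelial-like class held 95.3% of the S100a8 UMIs of MT1 with 77.0% of all UMIs. S100a14 had 26.0, 25.2, 25.6, 23.2 and 31.6 and 7.96, 0, 6.29, 4.64 and 6.38, 4.74-fold lower in the mesenchymal-like cells (log2 fold change -2.25, SE 0.26, edgeR adjusted p 1.92e-12). Its mesenchymal-like sums held 3, 0, 8, 5 and 5 UMIs. It passed the filter through the epithelial-like sums, so its fold and p-value are not read as support. S100a8 and S100a14 were apart in every library. S100a16 had 40.2, 28.9, 33.9, 34.1 and 36.1 and 23.9, 21.5, 30.6, 29.7 and 24.3 (log2 fold change -0.32, SE 0.16, edgeR adjusted p 0.0635), lower in the mesenchymal-like cells of all 5 libraries, so that its low level in MT1 was found in both classes, and it passed in 4 of 12 alternatives.

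Classes drawn from marker UMIs alone, with no clustering (183 mesenchymal and 5075 epithelial cells of MT1), gave the same directions for the 7 clear members, with S100a4 at 4.65, S100a6 at 1.67, S100a13 at 1.30, S100a11 at 0.62, S100a10 at 0.61 and S100a8 at -2.85 on the log2 scale. S100a14 had 0 UMIs in those mesenchymal cells, so its fitted value is no bound. Because S100a4 is also a gene of fibroblasts and macrophages, the markers of these cells were read in the same sums. The 9 fibroblast markers summed to 1853 to 2180 CPM in the mesenchymal-like cells and 132 to 160 in the epithelial-like cells, beside 30409.6 in the fibroblast-like cells of MT1. That sum was mostly Dcn (1572) and Gsn (347), and the fibrillar collagens Col1a1, Col1a2 and Col3a1 stood at 3.39, 11.7 and 9.39, against 3032, 12275 and 10453 in the fibroblast-like cells. Pdgfra stood at 15.1 in the mesenchymal-like, 1.11 in the epithelial-like and 88.8 in the fibroblast-like cells. The 9 immune markers in the table summed to 2.65 to 9.24 in the mesenchymal-like and 4.13 to 7.42 in the epithelial-like cells. The 4 neutrophil markers summed to 26.9 to 40.0 and 7.34 to 12.6, higher in the mesenchymal-like cells of every library. In MT1 outside the stromal clusters they were almost wholly Mmp9 (145 UMIs) and G0s2 (155), with 4 UMIs of Cxcr2 and 0 of Mmp8. The 6 mural markers summed to 2.65 to 7.43 and 8.61 to 10.5, lower in the mesenchymal-like cells. The 8 endothelial markers summed to 7.96 to 15.4 (3 to 15 UMIs a library) and 7.09 to 10.4, higher in the mesenchymal-like cells of every library. S100a4 itself stood at 88.8 in the fibroblast-like cells of MT1 and 249.8 in the mesenchymal-like cells. The part of these markers in the class differences was not tested.

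**Figure D3:**
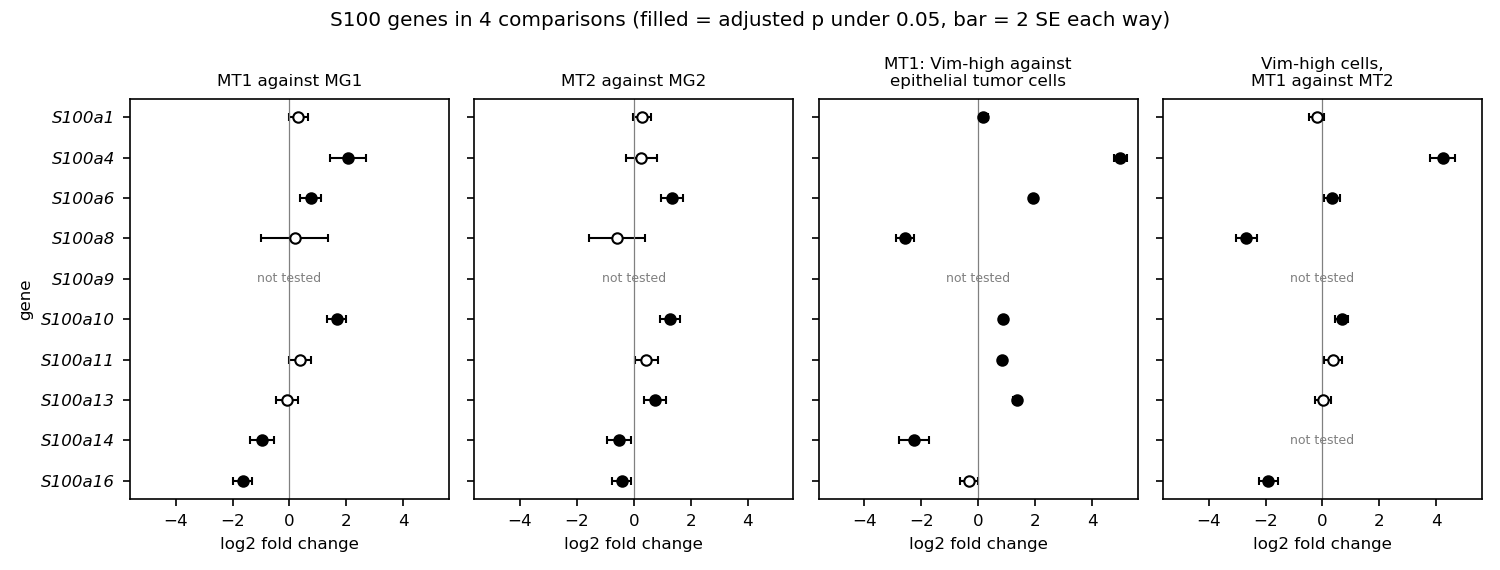
Log2 fold change of each S100 gene in 4 comparisons (points, with bars of 2 SE each way, filled where the adjusted p is under 0.05). The spread of the members is widest within MT1, from S100a8 at -2.57 to S100a4 at 4.99, and S100a10 is above 0 in all 4 panels.

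The epithelial-like cells of MT1 were not uniform. Cluster 3 (3446 MT1 cells, led by Sfrp1 and Igfbp5) and cluster 4 (2571 MT1 cells, led by Ccl20 and Tnfrsf11b) were read side by side over the 5 libraries, as a description. S100a6 ranged from 1011 to 1415 in cluster 3 and from 2109 to 2942 in cluster 4, and S100a10 from 1412 to 1711 and from 1902 to 2173. S100a14 ranged from 9.37 to 27.4 and from 26.4 to 47.8, while S100a16 went the other way, from 39.1 to 48.7 in cluster 3 to 14.4 to 28.3 in cluster 4. These ranges are separate for S100a6, S100a10 and S100a16, and nearly so for S100a14. S100a8 was also higher in cluster 3 (82.6 to 153, against 24.5 to 85.6), with 1 library of cluster 4 above the lowest of cluster 3. S100a4 ranged from 2.95 to 8.28 in cluster 3 and from 7.54 to 15.6 in cluster 4, on 4 to 30 UMIs a library, and was higher in cluster 4 in 4 of 5 libraries.

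**Figure D4:**
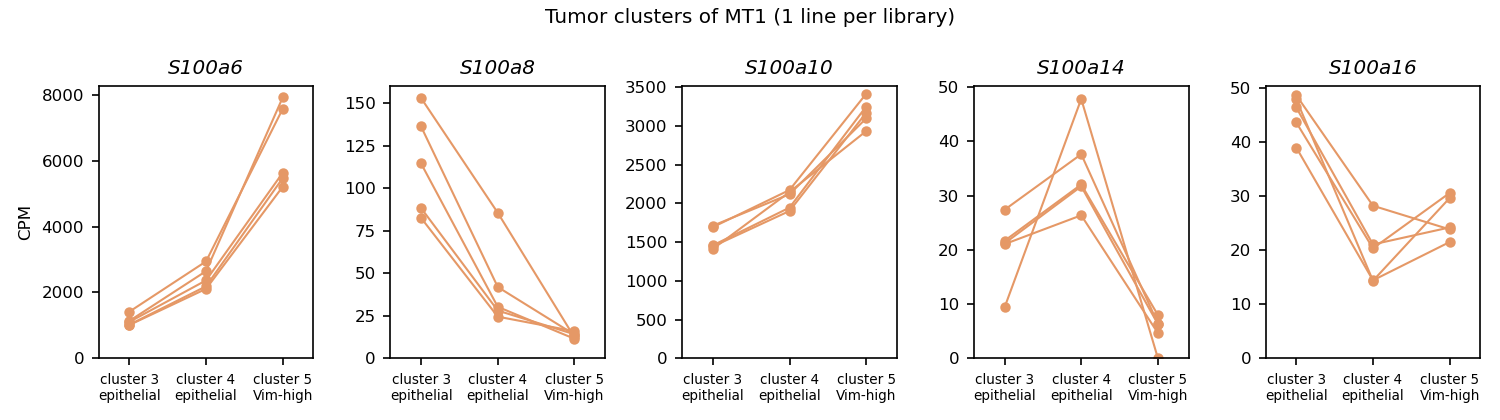
Level of 5 S100 genes per MT1 library (points, CPM) in the epithelial-like clusters 3 and 4 and the mesenchymal-like cluster 5. S100a6 climbs from cluster 3 over cluster 4 to cluster 5, while S100a16 is highest in cluster 3 and low in both others.

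The Vim-high cells of the tumors were then compared, to see whether the members of the mesenchymal-like MT1 cells were shared with MT2. Of the 8 members tested 5 were called, beside 63.0% of 8897 genes, and S100a9 and S100a14 did not pass the filter. S100a4 stood at 12.3, 12.5 and 15.1 CPM in the MT2 cells, 18.6-fold below the mesenchymal-like cells of MT1 (log2 fold change 4.22, SE 0.22, edgeR adjusted p 5.97e-15). After thinning, 1.27% of the Vim-high MT2 cells had an S100a4 UMI (1.05% to 1.51%, median depth 3141 UMIs). The share was 0.66% in the epithelial-like MT1 cells (0.48% to 0.90%) and 17.5% in the mesenchymal-like cells. These intervals cover counting error only, since cells are not replicates of a tumor, so they do not rank the tumors.

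S100a8, low in the mesenchymal-like cells of MT1, was at 73.9, 80.5 and 93.7 in the Vim-high MT2 cells (log2 fold change -2.67, SE 0.18, edgeR adjusted p 2.72e-12), within the range of the epithelial-like MT1 cells. S100a16 was at 82.4, 114 and 96.4 (log2 fold change -1.90, SE 0.17, edgeR adjusted p 2.73e-10). These S100a8 levels were above every mesenchymal-like MT1 library, and these S100a16 levels were above every MT1 library of either class. S100a10 was at 1644, 2069 and 1988, below the mesenchymal-like MT1 cells (log2 fold change 0.67, SE 0.12, edgeR adjusted p 3.41e-05). S100a6 was at 4503, 4788 and 5037, and its call (log2 fold change 0.34, SE 0.14, edgeR adjusted p 0.041) was lost in 7 of 13 alternatives, among them the removal of MT1 replicate 2, MT1 replicate 4 or any MT2 replicate. S100a13 was at 225, 233 and 255, inside the range of the mesenchymal-like MT1 cells, with a log2 difference of 0.01 whose interval of 2 SE runs from -0.27 to 0.30. S100a11 (log2 fold change 0.37, SE 0.17, edgeR adjusted p 0.0554) and S100a1 (log2 fold change -0.21, SE 0.14, edgeR adjusted p 0.195) did not pass, and S100a11 passed in 5 of 13 alternatives. The MT2 cells also had more of the fibroblast list (3485 to 3946 summed, of which Col1a2 2355) than the mesenchymal-like MT1 cells. The neutrophil list, mostly Mmp9 and G0s2, stood at 176 to 204 against 26.9 to 40.0. The mural list stood at 28.2 to 37.8 against 2.65 to 7.43 and the immune list at 12.1 to 18.03 against 2.65 to 9.24. The endothelial list was lower, at 4.62 to 6.38 against 7.96 to 15.4. The part of these lists in the differences was not tested.

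In the glands several members differed between the epithelial types. Basal-like cells (108 of MG1, 222 of MG2) had less S100a6, S100a8, S100a1, S100a13, S100a16 and S100a11 than the mean of the luminal types. Of 9 members tested 6 were called, all lower in basal-like cells, beside 36.5% of 9134 genes. The 2 luminal types differed in S100a8, higher in secretory-like cells, and in S100a6, S100a14, S100a11 and S100a1, higher in hormone-sensing-like cells (5 of 9 called, beside 34.1% of genes).

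S100a6 had 2654 and 2207 in the hormone-sensing-like cells of MG1 and 3553 and 3661 in those of MG2. In secretory-like cells it had 357 and 539.7 and 682 and 719.8, and in basal-like cells 525.5 and 620.2 and 223 and 453. The hormone-sensing-like cells stood above the other types in every library. Secretory-like cells were 4.84-fold lower than hormone-sensing-like cells (log2 fold change -2.28, SE 0.20, edgeR adjusted p 2.73e-10), and basal-like cells were 3.06-fold lower than luminal cells (log2 fold change -1.61, SE 0.20, edgeR adjusted p 1.61e-07).

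S100a8 had 13.8 and 370.4 in the secretory-like cells of MG1 and 297 and 236 in those of MG2. It had 2.38 and 78.8 and 24.4 and 24.2 in hormone-sensing-like cells and 0 and 15.1 and 3.06 and 0 in basal-like cells. The secretory-like level was the highest in each library, although MG1 replicate 1 was low in all 3 types. Secretory-like cells were 9.50-fold above hormone-sensing-like cells (log2 fold change 3.25, SE 0.23, edgeR adjusted p 1.91e-12) and basal-like cells were far below luminal cells (log2 fold change -4.87, SE 0.57, edgeR adjusted p 5.42e-08). The basal-like sums held only 0, 1, 1 and 0 UMIs. S100a8 passed the filter through the luminal sums, so the basal-like fold and p-value are not read as support. After thinning, 14.2% of MG2 secretory-like cells had an S100a8 UMI, against 0.99% of the hormone-sensing-like cells, at median depths of 2533 and 2558 UMIs.

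S100a14 marked hormone-sensing-like cells most in mouse 1, with 85.8 and 78.8 there, 3.93 and 15.9 in secretory-like and 19.5 and 15.1 in basal-like cells. In MG2 the values were 18.6 and 20.5, 14.7 and 13.2 and 24.5 and 10.9, and the basal-like libraries lay on either side of the other types. Secretory-like cells were lower (log2 fold change -1.48, SE 0.38, edgeR adjusted p 0.00324). The 68 hormone-sensing-like cells found in MT1 had 257.5 CPM of S100a14 and 341 of S100a16, above the hormone-sensing-like cells of the gland of the same mouse (84.6 and 127), with no test.

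S100a1 had 152 and 161 and 197 and 199 in hormone-sensing-like, 60 and 84.7 and 123 and 141 in secretory-like and 31.1 and 0 and 58.2 and 39.8 in basal-like cells. The order of the 3 types was the same in each library. Basal-like cells were below luminal cells (log2 fold change -1.77, SE 0.27, edgeR adjusted p 4.26e-06) and secretory-like below hormone-sensing-like cells (log2 fold change -0.70, SE 0.19, edgeR adjusted p 0.00489), a call lost without the library block (-0.67, edgeR adjusted p 0.137). S100a11 had 727, 301 and 331 CPM in the hormone-sensing-like, secretory-like and basal-like cells of MG1 and 847, 549.8 and 357 in those of MG2, so that the hormone-sensing-like cells were the highest in both glands. Both of its contrasts passed (log2 fold change -0.78, SE 0.15, edgeR adjusted p 0.000138 for basal-like, log2 fold change -0.74, SE 0.15, edgeR adjusted p 0.00027 for secretory-like). S100a13 (log2 fold change -1.02, SE 0.21, edgeR adjusted p 0.000359) and S100a16 (log2 fold change -0.89, SE 0.22, edgeR adjusted p 0.00195) were also lower in basal-like cells, and the S100a16 call was lost without MG2 replicate 1 or MG2 replicate 2. S100a13 did not differ past the threshold between the luminal types (log2 fold change 0.27, SE 0.17, edgeR adjusted p 0.231), and S100a10 did not between basal-like and luminal cells (log2 fold change 0.21, SE 0.13, edgeR adjusted p 0.194).

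**Figure D5:**
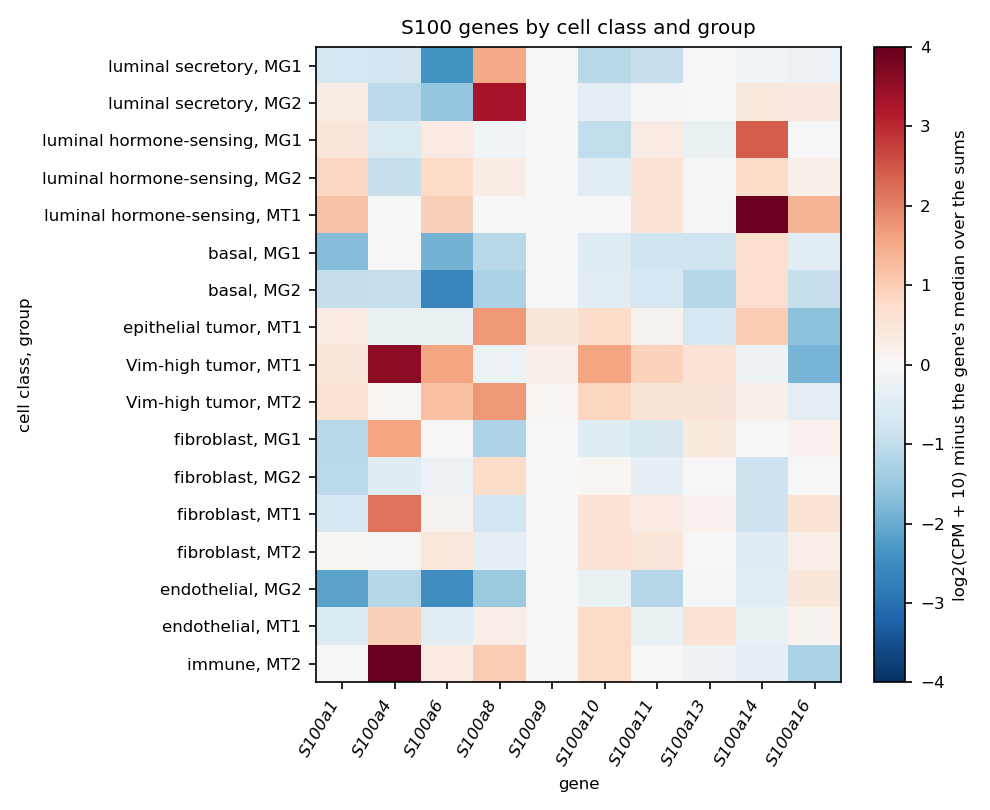
Level of each S100 gene in each cell class and group with 50 or more cells, as log2(CPM + 10) minus the median of that gene over these sums (colour). S100a4 stands out in the immune-like cells of MT2 (672 CPM) and the mesenchymal-like cells of MT1 (249.8), S100a8 in the secretory-like cells of MG2 (267), and S100a14 in the hormone-sensing-like cells of MT1 (257.5).

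Among the sums of a class in a group with 50 or more cells, S100a4 was highest in the 173 immune-like cells of MT2, at 672 CPM, with 1164, 225.0 and 812 in the 3 libraries. Of these cells 37.0% had an S100a4 UMI after thinning (29.8% to 44.7%). The mesenchymal-like cells of MT1 came next at 249.8, then the fibroblast-like cells of MT1 at 88.8 and of MG1 at 56.0 and the endothelial-like cells of MT1 at 32.9. Every other such sum was at 13.3 or below, with the fibroblast-like cells at 12.6 in MT2 and 5.62 in MG2. Of the smaller sums, the 44 MG2 cells of cluster 5 had 374 CPM and the 14 MG1 cells of the epithelial-like tumor clusters 203. In the luminal types of both glands the group sums of S100a4 were at or below 4.59. MG1 replicate 2 by itself had 21.2 in secretory-like and 15.0 in hormone-sensing-like cells, on 4 UMIs each. In MG2, 0 of 931 secretory-like and 0 of 911 hormone-sensing-like cells had a UMI after thinning, which allows shares of up to 0.322% and 0.329% of cells with a UMI at that depth (3 cells of the total) and sets no limit on cells expressing the gene. Without thinning these classes held 2 and 5 S100a4 UMIs. The spread over the immune-like libraries overlaps the mesenchymal-like range, so the order of these 2 classes is not resolved.

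S100a9 was almost absent. In all cells it had 84 UMIs in 37 of 21157 cells, while S100a8 had 6013 UMIs in 3155 cells. Outside the stromal clusters its libraries held 0 UMIs in MG1 and MG2, 4, 3, 12, 8 and 35 in MT1 and 1, 7 and 14 in MT2. Of the 35 UMIs of MT1 replicate 5, 27 came from 2 cells. Of the 7 neutrophil markers, Csf3r, Retnlg and Ly6g were not in the table, Cxcr2 had 7 UMIs and Mmp8 1 UMI outside the stromal clusters, whereas Mmp9 (3765) and G0s2 (4577) came mostly from MT2. In these cells Ptprc, the pan-leukocyte marker, had 22 UMIs.

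Of the 7 other S100 genes listed, 6 were in the table and all were sparse. Over MG1, MG2, MT1 and MT2 outside the stromal clusters, S100a3 had 7, 21, 61 and 18 UMIs, S100b had 2, 1, 65 and 24, S100a7a had 7, 0, 26 and 21, S100a2 had 0, 0, 4 and 8, S100a5 had 0, 0, 4 and 0 and S100g had 0, 21, 0 and 0. As a description with no test, S100b had 2.73 to 4.24 CPM in the 5 MT1 libraries and 0.512 to 0.629 in the 3 MT2 libraries, and S100a3 had 2.36 to 4.23 and 0.292 to 0.534, so that neither gene overlapped between the tumors. The S100g UMIs were in both MG2 libraries (5 and 16) and in no other.

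The list of 14 S100 partners and receptors (annexins, cytoskeletal and membrane partners, the receptors Ager and Tlr4, Bsg, and the plasminogen activators Plat and Plau) was read in the same fits. In MT1 against MG1, 7 were higher and 2 lower of 13 tested (59.3% of all genes called), and in MT2 against MG2 6 were higher and 3 lower of 13 (66.9% of all genes). None was called in opposite directions in the tumors. In the mesenchymal-like against the epithelial-like cells of MT1, 8 were higher and 2 lower of 11 (63.4% of all genes). These counts are not read as a result about the list.

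Anxa2, the partner of S100a10, had 721 and 736 in MG1, 1159, 906, 1115, 994 and 1032 in MT1, 904 and 910.4 in MG2 and 842, 1124 and 985 in MT2. It rose in MT1 (log2 fold change 0.51, SE 0.16, edgeR adjusted p 0.0105, but 0.41 with adjusted p 0.0664 without MG1 replicate 2), its MT2 value did not pass (log2 fold change 0.26, SE 0.17, edgeR adjusted p 0.189), and it was higher in the mesenchymal-like cells (log2 fold change 1.08, SE 0.04, edgeR adjusted p 2.97e-40). Its shift in the tumors was smaller than that of S100a10 in both mice, with no test of that difference.

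Ahnak, a giant scaffold that binds S100a10 and Anxa2, went the other way. It had 3662 and 2627 in MG1 and 759, 1134, 947, 848 and 827 in MT1, and 2729 and 2899 in MG2 and 2113, 1553 and 1624 in MT2, with no overlap in either mouse. It fell in both (log2 fold change -1.82, SE 0.20, edgeR adjusted p 5.90e-07 in MT1 and log2 fold change -0.53, SE 0.22, edgeR adjusted p 0.0434 in MT2), more in mouse 1 (log2 difference -1.29, SE 0.31, edgeR adjusted p 0.00243). The MT2 call of Ahnak was lost in 5 of 12 alternatives, among them the removal of MG2 replicate 1, MG2 replicate 2, MT2 replicate 2 or MT2 replicate 3 (log2 fold change -0.32 to -0.48, edgeR adjusted p 0.100 to 0.350).

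Myh9, the non-muscle myosin heavy chain bound by S100A4, had 443 and 399 in MG1, 248, 263, 303, 279.6 and 248.9 in MT1, 358 and 379 in MG2 and 256, 211 and 231 in MT2. It fell in both tumors (log2 fold change -0.66, SE 0.15, edgeR adjusted p 0.00119 in MT1 and log2 fold change -0.52, SE 0.16, edgeR adjusted p 0.00925 in MT2). The MT1 call of Myh9 was lost without MG1 replicate 1 (log2 fold change -0.29, edgeR adjusted p 0.218), and its MT2 call in 3 of 12 alternatives, among them the removal of MG2 replicate 1 (-0.32, edgeR adjusted p 0.212) or MG2 replicate 2 (-0.31, edgeR adjusted p 0.238). Within MT1 it was higher in the mesenchymal-like cells (log2 fold change 0.50, SE 0.06, edgeR adjusted p 5.05e-11), as was Ahnak (log2 fold change 0.28, SE 0.04, edgeR adjusted p 5.29e-08), but neither held in the classes from marker UMIs (Myh9 0.17, edgeR adjusted p 0.527, Ahnak -0.11, edgeR adjusted p 0.60).

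Among the receptors, Ager (RAGE) had 0 UMIs in MG1, 2.70 and 1.78 CPM in MG2, 0.605, 1.18, 0.911, 1.35 and 0 in MT1 and 31.9, 34.8 and 36.3 in MT2. MT2 stood far above the other groups, against MG2 (log2 fold change 4.05, SE 0.33, edgeR adjusted p 8.64e-09) and against MT1 (log2 fold change -5.31, SE 0.27, edgeR adjusted p 1.73e-11). Ager passed the filter through MT2, where it is high, so these folds and p-values are not read as support. Tlr4, a receptor of calprotectin, had 4.52 and 3.83 in MG1, 6.05, 4.32, 3.34, 2.89 and 5.17 in MT1, 15.2 and 13.2 in MG2 and 5.38, 5.34 and 4.50 in MT2. It fell in MT2 (log2 fold change -1.35, SE 0.25, edgeR adjusted p 0.000109) but not past the threshold in MT1 (log2 fold change -0.19, SE 0.42, edgeR adjusted p 0.723). Bsg, another S100A9 receptor, had 175 and 245 in MG1, 218, 219, 152, 167 and 165 in MT1, 189.8 and 241 in MG2 and 236, 241 and 278 in MT2. It passed in neither tumor (log2 fold change -0.16, SE 0.17, edgeR adjusted p 0.421 in MT1 and log2 fold change 0.37, SE 0.17, edgeR adjusted p 0.0673 in MT2, which passed in 3 of 12 alternatives). It was lower in the mesenchymal-like cells of MT1 (log2 fold change -0.44, SE 0.08, edgeR adjusted p 6.40e-07), a call lost in the classes from marker UMIs (-0.40, edgeR adjusted p 0.172).

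As a description of likeness, Pearson's r of log2(CPM + 10) was taken over the 17 sums of a class in a group with 50 or more cells, which share libraries and depth. Among the 3 genes outside the family most like S100a4 were Slc11a1 (0.88) and Ap1m1 (0.84). Those most like S100a14 were Slc26a10, Dgki and Krt15 (0.91 each), and those most like S100a8 were Dbi (0.86), Acadm and Arfrp1 (0.77 each). Slc11a1, Slc26a10 and Dgki held only 153, 117 and 140 UMIs, so their r rests on few molecules. S100a10 was most like Slc25a4 (0.95), Mtap (0.94) and Ncapg (0.94), S100a6 like Mlec, Sfxn1 (0.91 each) and Dpm3 (0.90), and S100a11 like Mlec (0.93), Dap (0.90) and Spcs1 (0.88). S100a1 was most like Fbxo31, Chmp1a and Ndufaf7 (0.90 each), S100a13 like A4galt (0.76), Sri and Sh3glb1 (0.73 each), and S100a16 like Ly6a, Tbc1d9b (0.74 each) and Tceal8 (0.70). Among the members, S100a6 and S100a11 were most alike (0.89), then S100a1 and S100a11 (0.86).

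Within the cluster on chromosome 3, S100a16 and S100a4, adjacent among the members, went in opposite directions in MT1 against MG1. The median log2 fold change of chromosome 3 genes was 0.30 in MT1 (726 genes) against 0.11 over all genes, and 0.43 in MT2 against -0.05. S100a1 and S100a13, which start 43 bases apart, had log2 fold changes of 0.28 and 0.75 in MT2 against MG2, with no test between the genes.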

How the data were processed

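The members and the lists used here were chosen with earlier results of these data known. The authors sequenced Drop-seq libraries on an Illumina instrument and aligned the reads with STAR to GRCm38.p6 with the Drop-seq tools, and deposited tables of raw UMI counts, not normalized, for cells that passed their filters (at least 800 genes in the table). Whether the counting used strand is not given in the sources used here.

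Cells were clustered with scanpy 1.11.5 in Python 3.11.15 on log-normalized counts without the 16 S100 genes found in the table (3000 variable genes, 30 components, 20 neighbours, Leiden resolution 0.6). Clusters were named from marker lists, requiring that 3 or more markers rise by a log2 fold of at least 1, with 10 CPM added to each level, and that the leading genes do not go against the name. A tumor cluster has 90% or more of its cells from tumors. Doublets stayed in, since the caller had not worked (44 cells marked, 0.208%), and an alternative left out the top 5% of scores in each library. Cells outside the stromal clusters (20048) entered the library sums, as in the study's own tumor analysis.

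Counts were summed per library, or per library and class (10 or more cells), and compared with the quasi-likelihood F test of edgeR 4.0.16 under R 4.3.3 (TMM, filterByExpr, Benjamini-Hochberg adjusted p under 0.05 over all genes tested). The 12 libraries in 4 groups shared 1 fit. Class comparisons within libraries had the library as a block, and the paired fit had the mouse as a block, the pairing being given by the labels. SE is the absolute log2 fold change over the square root of F. Levels (CPM) are counts scaled to the total of the sum before TMM, and fold changes are TMM-scaled. Alternatives were DESeq2 1.42.0, RLE scaling, no filter, other cells, other classes and leaving out each library. Gene positions are from GENCODE in GRCm38 and promoters from RefSeq. The genes named are the members, their listed partners and receptors, and by the rule for likeness the 3 genes with the highest correlation to each member (S100a9, with 84 UMIs, is left out of the text, and 1 gene like S100a4 is not reported here).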

Additional observations from a re-analysis of the deposited data

Results flagged for a closer look

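Levels of the 10 members were screened for a library far from the others in the 5 MT1 libraries, over all cells outside the stromal clusters and in each of the 2 tumor cell classes (30 sets of values), and 4 were found. MG1, MG2 and MT2 have too few libraries for this screen. Chance alone gives about 1 in 20. They were the lowest S100a16 level of MT1 (32.2 CPM, replicate 2, against 36.2 to 37.7 in the others), the highest S100a9 level of MT1 (10.0, replicate 5) and of its epithelial-like cells (12.8, the same library, 27 UMIs in 2 cells), and the highest S100a4 level in the mesenchymal-like cells of MT1 (459, replicate 2, against 193 to 251). The calls for S100a16 and S100a4 in comparisons with MT1 held without MT1 replicate 2.

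The tumor against gland change differed between the mice for 3 members by the test of the difference itself (mouse 1 minus mouse 2, edgeR adjusted p under 0.05): S100a4 by 1.79, S100a16 by -1.22 and S100a13 by -0.84 on the log2 scale. The S100a4 difference was not called without the gland cells in tumor clusters, without MG2 replicate 2 or with stromal cells included, and the S100a13 difference was not called without MG1 replicate 1.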

How the results depend on the processing

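Of 714 member values under the alternatives, 635 kept their direction and side of the threshold, 41 lost the call, 32 gained it and 6 reversed. Of 236 partner values 217 kept both, and of 216 counts of calls 202 stayed within 1.5 times. For S100a8 in MT1 against MG1 (0.18) the value was -0.054 in a fit of these groups only, -0.42 with DESeq2, and -1.04 to 2.91 with 1 library left out. Leaving out 1 library gave -0.29 to 0.34 for Tlr4 in MT1 against MG1 and -0.083 to 1.37 for S100a4 in MT2 against MG2, and without gland cells in tumor clusters the S100a4 difference between mice was -0.47. Members called in MT1 against MG1 numbered 8 with all cells (5 in the report). With 1 library left out they numbered 3 to 5 in MT2 against MG2 and 2 to 5 for the difference between mice. DESeq2 called 1 member and 1332 genes in the paired comparison. With marker UMIs as classes, 2287 genes were called between the MT1 classes (6204 in the report), and Ahnak was at -0.11. Without the library block, 2203 genes were called for basal against luminal and 1403 for secretory against hormone-sensing cells, and with 1 library left out 1697 to 3466 and 1405 to 3629. The cause of these shifts was not tested, except that the class fits with 1 library left out have fewer samples. No paired analysis by replicate number was possible because the numbers are in accession order and name libraries only. At these depths S100a9 and S100a14 limit what can be seen, and 2 mice limit what can be said of animals.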
